A study of Mus musculus with 16 samples.

Results

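The 42 genes described here encode parts of the kinetochore and the proteins that govern chromosome segregation. They were chosen by name: 20 are the protein-coding genes called Cenp followed by 1 letter, and 22 are listed kinetochore, checkpoint, kinase, motor and separase genes. All 42 were found among the 54532 genes of the deposited count table, of which 22046 are protein-coding, and all 42 passed the filter on low counts. The rule itself uses no expression value, but the genes were chosen with earlier results of these data known.

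RNA was sequenced from 16 libraries of mouse colorectal tumours, in 8 groups of 2. Tumours were grown in the wall of the descending colon of C57BL/6 mice from either of 2 lines of MC38, a mouse colon carcinoma: MSI, for microsatellite instability, and CIN, for chromosomal instability. All the mice also received dendritic cells grown from bone marrow, injected into the abdomen on days 1, 6 and 12, and the tumours were taken on day 15. Those dendritic cells had been exposed for 30 minutes, with Lipofectamine 2000, to 2 µg of free cytosolic DNA or micronuclei from MSI or CIN cells. The 8 groups are therefore MSI or CIN tumours given MSI free DNA, CIN free DNA, MSI micronuclei or CIN micronuclei, where "given" stands for the DNA the injected cells had been exposed to. Each tumour type came from 1 line, so the kind of instability and any other difference between the lines cannot be told apart. No group given unexposed dendritic cells was analysed here. RNA of 3 biological replicates was combined before sequencing, and nothing says whether the libraries of a group came from separate pools. The p-values rest on the spread between libraries, which may be partly technical.

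A kinetochore is the protein plate that forms on each centromere and holds the chromosome to the spindle. Its inner layer, built around the centromeric histone CENP-A, stays on the chromosome, while an outer layer led by the Ndc80 complex binds microtubules in mitosis. Unattached kinetochores switch on the spindle assembly checkpoint, which holds back Cdc20 and the anaphase-promoting complex until every chromosome is attached; separase then cuts the cohesin between sister chromatids. Most of these genes are transcribed mainly in dividing cells, so in a tissue their RNA also follows how many cells are dividing.

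The libraries held 11561955 to 17937501 counts. Of 18 markers of colon epithelium, all were measured, and their summed level ran from 737 to 15987 CPM (counts scaled to equal library size) in the MSI tumours and from 178 to 9419 CPM in the CIN tumours. The defining epithelial markers were present, although Cdx2 was at 0 in 1 library and Epcam ran from 12.7 to 1366 CPM. The 4 MSI tumour libraries whose titles end in 2 stood apart: their summed colon epithelium level was 9780 to 15987 CPM, against 737 to 4860 CPM in the 4 whose titles end in 1, and their 10 smooth muscle markers summed to 2296 to 5776 CPM against 498 to 1388 CPM. Skeletal muscle transcripts were high in 5 libraries, 1 from MSI and 4 from CIN tumours; the 12 markers summed to 6.34 to 837 CPM in MSI and to 9.30 to 325 CPM in CIN tumours, and Myh4 and Pvalb were at 0 in 10 libraries each. The results below are given with and without these libraries where that changes them.

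Between MSI and CIN tumours, Cenpv was higher and Cenpf lower in the MSI tumours, and the other 40 genes did not pass the test. In edgeR's quasi-likelihood test over 8 against 8 libraries, 2 of the 42 genes had an adjusted p under 0.05, beside 5.80% of all 18777 genes tested. For calls higher in MSI tumours the count was 1, beside 2.32% of all genes, and for calls lower it was also 1, beside 3.48%. The share of these genes called was thus near the share of all genes called. DESeq2 called 4 of the 42 (Cenpb, Cenpf, Cenpt and Cenpv), beside 12.2% of all genes. Of the 42, 16 were on the higher and 26 on the lower side in MSI tumours. Their median log2 fold change was −0.05, against 0.06 over all genes tested. The standard error of a log2 fold change had a median of 0.17 over the 42 genes, so the values that missed the threshold do not show that the tumour types had equal levels. In such bulk samples a smaller share of dividing cells and less RNA of these genes per cell cannot be told apart. All 18 colon epithelium markers were on the higher side in MSI tumours (median log2 fold change 1.024), and none was called. All 12 skeletal muscle markers were on the lower side (median −1.85), and none was called. Beyond a fit with tissue marker means as covariates, given below, the part of these tissues in the values of the 42 genes was not tested.

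**Figure D1:**
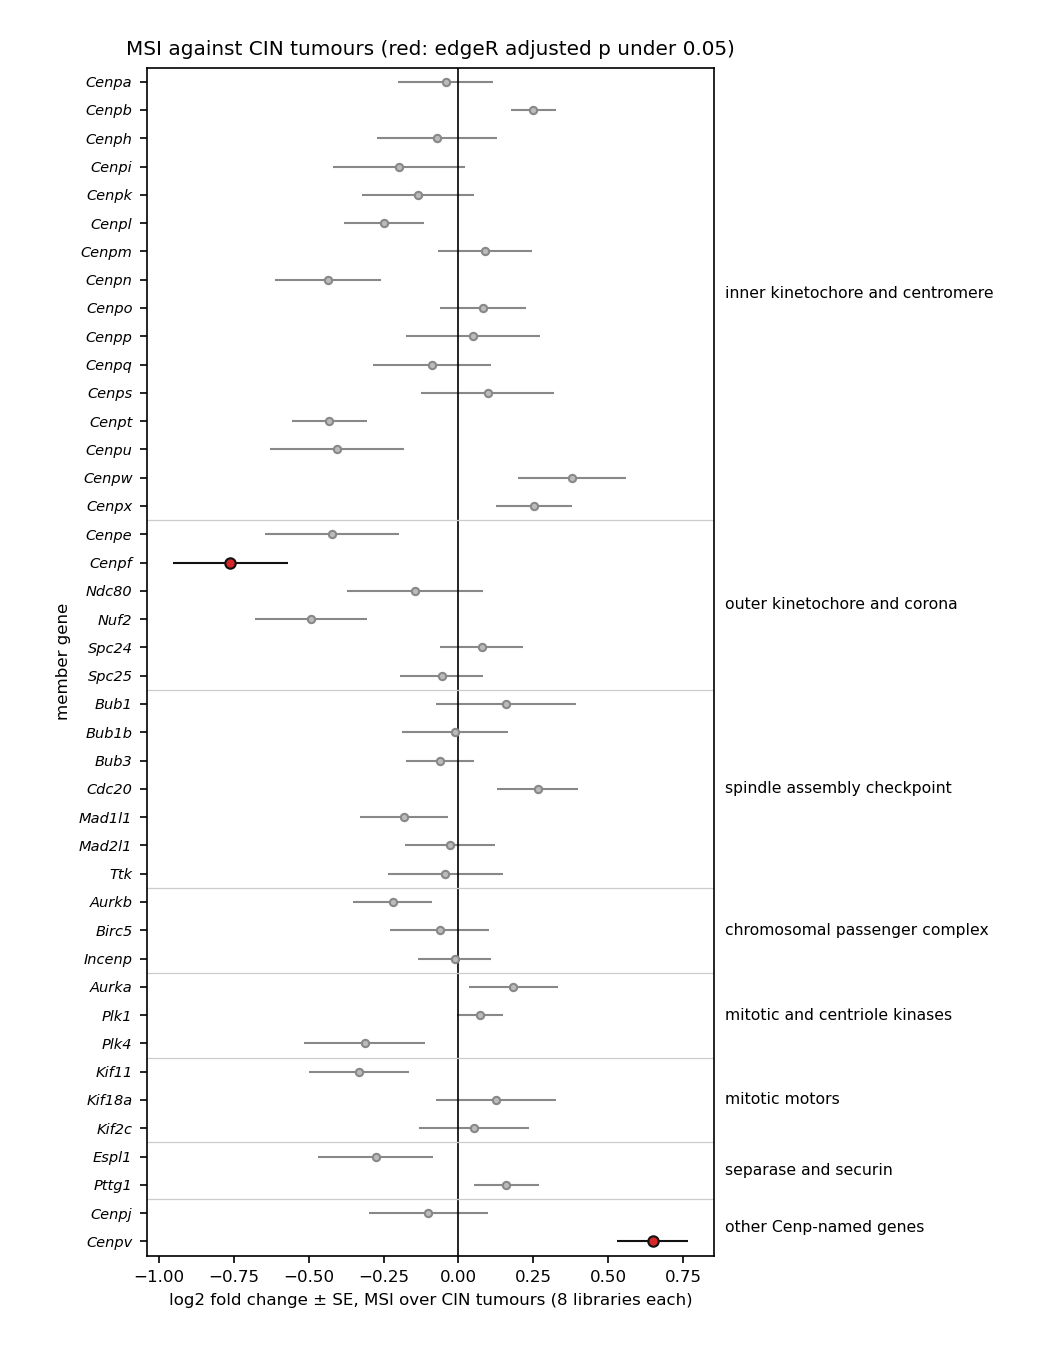
The horizontal axis gives the log2 fold change of MSI over CIN tumours for each of the 42 genes, grouped by role, with bars of 1 standard error from edgeR (8 libraries of each tumour type). Cenpv, at 0.65, and Cenpf, at −0.76, are drawn in red as the genes whose adjusted p was under 0.05.

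Cenpv encodes a protein found on centromeric heterochromatin and on spindle microtubules. The gene (ENSMUSG00000018509) lies at chr11:62524946-62539261 on the minus strand of GRCm38. In MSI tumours its level was 25.4 CPM in the lowest, 29.3 CPM at the median and 38.3 CPM in the highest of 8 libraries. In CIN tumours it was 14.4 CPM in the lowest, 19.6 CPM at the median and 23.9 CPM in the highest of 8. Every MSI tumour library was above every CIN tumour library. Cenpv was the only one of the 42 genes with no overlap between the tumour types, beside 3.11% of all genes tested. The mean was 30.3 ± 4.25 CPM (SD, n = 8) in MSI tumours and 19.4 ± 2.99 CPM (SD, n = 8) in CIN tumours. The gene was 1.57-fold higher in MSI tumours (log2 fold change 0.65, SE 0.12, adjusted p = 0.0115 by edgeR's quasi-likelihood test).

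By DNA kind, the pair of Cenpv values in MSI tumours was 29.1 and 27.3 CPM with MSI free DNA, 25.4 and 33.5 CPM with CIN free DNA, 38.3 and 29.6 CPM with MSI micronuclei, and 32.6 and 26.7 CPM with CIN micronuclei. In CIN tumours the pairs were 23.9 and 17.0 CPM, 17.9 and 20.5 CPM, 14.4 and 18.9 CPM, and 22.0 and 20.3 CPM, in the same order. MSI tumours were therefore higher with each of the 4 kinds of DNA. The log2 fold changes within a kind were 0.46, 0.61, 1.03 and 0.49, the largest with MSI micronuclei, and none passed the test by itself in edgeR (lowest adjusted p = 0.217). Leaving out any 1 of the 16 libraries kept Cenpv called, with log2 fold changes from 0.60 to 0.72 and edgeR adjusted p from 0.0126 to 0.0436. When the 5 libraries with high skeletal muscle transcripts were left out, the log2 fold change was 0.46 and the call was lost (edgeR adjusted p = 0.242); none of the 42 genes was called then, beside 0.696% of all genes. In the libraries numbered 1 alone it was 0.66, and the call was also lost (edgeR adjusted p = 0.168).

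**Figure D2:**
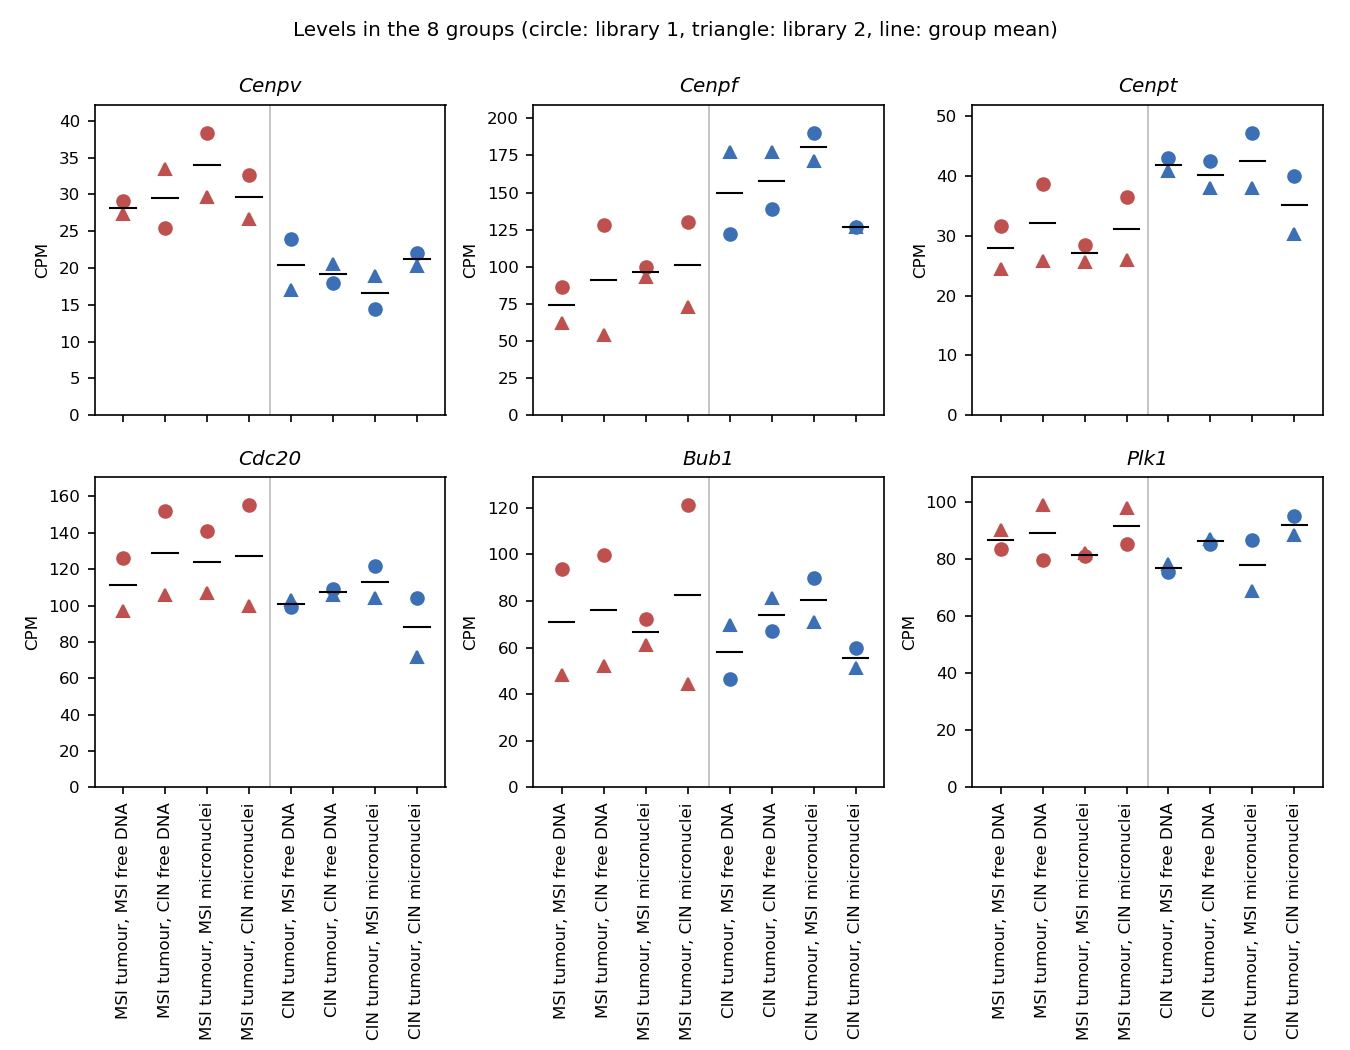
Each panel gives the level in CPM (vertical axis) of 1 gene in the 8 groups (horizontal axis), with a circle for the library numbered 1, a triangle for the library numbered 2 and a line at their mean. The MSI tumour points of Cenpv, 25.4 to 38.3 CPM, are all above the CIN tumour points, 14.4 to 23.9 CPM, while for Cenpt, Cdc20, Bub1 and Plk1 the tumour types overlap.

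Genes of mitosis are known to share short promoter elements: the cell cycle genes homology region (CHR), read by MuvB complexes, and the CCAAT box, read by NF-Y. RefSeq windows on GRCm38.p6, from 250 bases before to 50 after a RefSeq transcription start, were matched for 39 of the 42 genes (44 windows), and Aurkb, Incenp and Spc24 had no entry. Such a start can lie inside the counted gene and not at its 5′ end, as for Kif2c, Cenpj and a window of Mad1l1. Kif2c is counted below among the genes with CHR letters. The last 120 bases before the start are printed for the 2 called genes and 4 others chosen to show windows with and without the letters, 5′ to 3′ on the gene's own strand. Capitals mark CHR letters (TTTGAA or TTCGAA) and CCAAT letters on either strand.
Cenpv, chr11:62539262-62539381, minus strand: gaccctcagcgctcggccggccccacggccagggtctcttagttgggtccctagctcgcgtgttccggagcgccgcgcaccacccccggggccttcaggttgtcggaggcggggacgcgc
Cenpf, chr1:189688087-189688206, minus strand: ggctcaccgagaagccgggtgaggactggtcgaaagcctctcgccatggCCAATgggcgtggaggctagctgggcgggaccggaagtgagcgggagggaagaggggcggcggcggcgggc
Cdc20, chr4:118437344-118437463, minus strand: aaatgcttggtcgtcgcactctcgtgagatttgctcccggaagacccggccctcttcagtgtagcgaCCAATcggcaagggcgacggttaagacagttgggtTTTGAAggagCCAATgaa
Espl1, chr15:102296173-102296292, plus strand: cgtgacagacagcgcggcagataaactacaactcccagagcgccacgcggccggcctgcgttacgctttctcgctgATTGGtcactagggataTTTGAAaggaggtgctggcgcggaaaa
Kif11, chr19:37376262-37376381, plus strand: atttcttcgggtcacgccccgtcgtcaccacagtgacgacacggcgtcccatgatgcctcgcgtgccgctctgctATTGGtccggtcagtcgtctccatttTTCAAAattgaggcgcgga
Cenpb, chr2:131180068-131180187, minus strand: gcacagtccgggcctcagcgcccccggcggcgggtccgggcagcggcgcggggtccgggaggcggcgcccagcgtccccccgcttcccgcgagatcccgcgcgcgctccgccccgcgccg

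Cdc20, Espl1 and Kif11 have a CCAAT box at −53, −44 and −45 from the start and, downstream of it, CHR letters at −18, −27 and −19, counted to the first base. Cdc20 has a further CCAAT box, at −8, between the CHR letters and the start. In Cenpf the CHR letters begin at +3, just past the printed stretch, and a further CCAAT box begins at −132. Neither set of letters was found in the 300-base windows of Cenpv and Cenpb. Over the member windows, 43.2% held CHR letters, 61.4% CCAAT letters and 38.6% both, against 19.2%, 37.4% and 7.52% of 32851 RefSeq windows of the same length. By gene, 18 of the 39 had CHR letters and 16 had both kinds, and in Cenpw alone the CHR and CCAAT letters shared a base. The median log2 fold change of MSI over CIN tumours was −0.04 for the 18 genes with CHR letters and −0.07 for the 21 without, so the letters did not separate the genes by tumour type. A match to these letters is a description of the sequence and does not show that a factor binds there.

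The inner kinetochore and centromere genes numbered 16, and none passed the test between tumour types; 7 were on the higher and 9 on the lower side in MSI tumours, with a median log2 fold change of −0.06. Cenpa, the histone that marks the centromere, was at 80.8 CPM in the lowest, 106 CPM at the median and 153 CPM in the highest MSI tumour library. In CIN tumours it was at 86.5, 109 and 151 CPM by the same measures. The ranges of Cenpa overlapped almost entirely (log2 fold change −0.04, SE 0.16, edgeR adjusted p = 0.883). Cenpt, which carries a second path from centromeric DNA to the Ndc80 complex, was at 24.5, 27.3 and 38.7 CPM in MSI tumours, against 30.4, 40.4 and 47.2 CPM in CIN tumours. Its medians differed but the ranges overlapped, and its log2 fold change of −0.43 (SE 0.12) missed the threshold (edgeR adjusted p = 0.0722). Part of the Cenpt gene lies opposite Tsnaxip1, and how strand was treated in counting is unknown, so reads of the pair could not be told apart.

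Cenpb, which binds a short motif in satellite DNA, had the most counts of the 42 genes. It was at 264, 277 and 295 CPM (lowest, median and highest) in MSI tumours, against 206, 227 and 282 CPM in CIN tumours. The MSI values were closely grouped and reached into the top of the CIN range, and the log2 fold change of 0.25 (SE 0.08) missed the threshold (edgeR adjusted p = 0.0831). Cenpb overlaps Spef1 on the same strand. Cenpn, which reads the CENP-A nucleosome, had a log2 fold change of −0.44 (SE 0.18, edgeR adjusted p = 0.181). Cenpw, a histone-fold partner of CENP-T, was on the other side at 0.38 (SE 0.18, edgeR adjusted p = 0.247). The remaining inner genes lay between −0.41, for Cenpu, and 0.25, for Cenpx.

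The outer kinetochore and corona genes numbered 6, of which 1 was lower in MSI tumours and passed the test, Cenpf; 5 were on the lower and 1 on the higher side, with a median of −0.28. Cenpf encodes a very large coiled-coil protein that joins the kinetochore as cells enter mitosis and binds microtubules. The gene (ENSMUSG00000026605) lies at chr1:189640606-189688086 on the minus strand of GRCm38. Its level in MSI tumours was 53.9 CPM in the lowest, 89.6 CPM at the median and 130 CPM in the highest of 8 libraries, and in CIN tumours 122, 155 and 190 CPM. The overlap was small: 2 MSI tumour libraries, at 128 and 130 CPM, reached into the bottom of the CIN range. The means were 90.7 ± 28.0 CPM (SD, n = 8) and 154 ± 27.6 CPM (SD, n = 8). Cenpf was 1.70-fold lower in MSI tumours (log2 fold change −0.76, SE 0.19, adjusted p = 0.0436 by edgeR's quasi-likelihood test).

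In MSI tumours the pairs of Cenpf values were 86.2 and 62.2 CPM with MSI free DNA, 128 and 53.9 CPM with CIN free DNA, 99.9 and 93.0 CPM with MSI micronuclei, and 130 and 72.8 CPM with CIN micronuclei. In CIN tumours they were 122 and 177 CPM, 139 and 177 CPM, 190 and 171 CPM, and 127 and 127 CPM. The log2 fold changes within a DNA kind were −1.01, −0.80, −0.91 and −0.33, all on the lower side, and none passed the test by itself in edgeR (adjusted p = 0.669 for the largest). The Cenpf call held when MSI tumour CIN free DNA 1 or MSI tumour CIN micronuclei 1 was left out (edgeR adjusted p = 0.00779 and 0.0225), and was lost when any of the other 14 libraries was left out, with adjusted p up to 0.128 and log2 fold changes from −0.95 to −0.63 over the 16 settings. Without the 4 MSI tumour libraries numbered 2 the log2 fold change was −0.48 (edgeR adjusted p = 0.0560). When the 5 libraries with high skeletal muscle transcripts were left out it was −0.60 (edgeR adjusted p = 0.339). That fit used the model of tumour, DNA source and DNA form, which gave −0.77 on all 16 libraries (edgeR adjusted p = 0.0151).

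Ndc80, the subunit that grips the microtubule, was at 28.1 CPM in the lowest, 44.4 CPM at the median and 74.3 CPM in the highest MSI tumour library, and at 38.3, 51.1 and 66.5 CPM in CIN tumours. The MSI values ran both below and above all the CIN values (log2 fold change −0.15, SE 0.23, edgeR adjusted p = 0.707). Nuf2, its partner, was at 37.0, 49.6 and 77.7 CPM in MSI tumours, against 47.8, 74.6 and 102 CPM in CIN tumours. Its log2 fold change of −0.49 (SE 0.19) missed the threshold (edgeR adjusted p = 0.153). Spc24 and Spc25, the remaining subunits of the same complex, were at 0.08 and −0.06. Cenpe, the motor that carries chromosomes towards the spindle equator, was at −0.42 (SE 0.22, edgeR adjusted p = 0.294).

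None of the 7 spindle assembly checkpoint genes passed the test; 2 were on the higher and 5 on the lower side, with a median of −0.03. Bub1, the kinase that recruits checkpoint proteins to the kinetochore, was at 44.5, 66.7 and 121 CPM (lowest, median and highest) in MSI tumours, against 46.7, 68.4 and 89.99 CPM in CIN tumours (log2 fold change 0.16, SE 0.23). Bub1b, which encodes the checkpoint inhibitor BubR1, was at 68.4, 92.9 and 144 CPM and at 67.96, 102 and 124 CPM (−0.01, SE 0.18). For both, the CIN range lay almost wholly inside the MSI range. Mad2l1, the protein that locks onto Cdc20, was at 59.8, 72.2 and 108 CPM in MSI tumours, against 55.6, 79.2 and 104 CPM in CIN tumours (−0.03, SE 0.15). Ttk, the kinase at the head of the checkpoint, was at 18.04, 29.7 and 48.0 CPM and at 24.3, 32.3 and 40.3 CPM (−0.04, SE 0.19).

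Cdc20, the target of the checkpoint and an activator of the anaphase-promoting complex, was at 97.04, 116 and 155 CPM in MSI tumours, against 71.9, 104 and 122 CPM in CIN tumours. MSI tumours had the higher mean with each of the 4 DNA kinds, yet the ranges overlapped and the log2 fold change of 0.26 (SE 0.14) missed the threshold (edgeR adjusted p = 0.283). Only Cenpv, Cenpb and Cenpw shared that order, higher in MSI tumours with 4 of 4 DNA kinds. The opposite order, lower with 4 of 4, was found for 9 genes: Cenpe, Cenpf, Cenpi, Cenpk, Cenpl, Cenpn, Cenpt, Nuf2 and Plk4. The shares of all genes with these orders were not computed, so these counts are only a description.

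The chromosomal passenger complex corrects wrong attachments through the kinase Aurkb, held at the centromere by Birc5 and Incenp. Its 3 genes were all on the lower side in MSI tumours and none passed the test. Aurkb was at 45.0, 55.1 and 84.4 CPM (lowest, median and highest) in MSI tumours, against 48.1, 71.4 and 78.8 CPM in CIN tumours (log2 fold change −0.22, SE 0.13, edgeR adjusted p = 0.350). Birc5, or survivin, was at 52.4, 69.0 and 91.7 CPM and at 48.0, 73.8 and 88.3 CPM (−0.06, SE 0.16). Each pair of ranges overlapped over most of its length.

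Among the kinases, Aurka, which matures the spindle poles, was at 45.5, 61.5 and 77.1 CPM in MSI tumours, against 37.2, 55.0 and 67.4 CPM in CIN tumours (log2 fold change 0.18, SE 0.15). Plk1, which acts at centrosomes, kinetochores and the midbody, was at 79.7, 84.5 and 98.9 CPM and at 69.0, 86.2 and 95.3 CPM. Plk1 had a tight spread in both tumour types and a log2 fold change of 0.07 (SE 0.08, edgeR adjusted p = 0.586). Plk4, the kinase that starts centriole duplication, was at 41.98, 68.5 and 96.0 CPM in MSI tumours, against 62.8, 84.5 and 106 CPM in CIN tumours (−0.31, SE 0.20, edgeR adjusted p = 0.379). No kinase passed the test.

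Of the motors, Kif18a, which dampens chromosome movement at the spindle equator, was at 14.8, 23.5 and 35.1 CPM in MSI tumours, against 15.9, 22.3 and 28.4 CPM in CIN tumours (log2 fold change 0.13, SE 0.20). Kif11, which pushes the spindle poles apart, was at −0.33 (SE 0.17, edgeR adjusted p = 0.274) and Kif2c, which takes apart microtubules at wrong attachments, at 0.05. Espl1, the separase gene, was at 48.2, 76.1 and 118 CPM in MSI tumours, against 69.5, 96.8 and 123 CPM in CIN tumours (−0.28, SE 0.19). Pttg1, its inhibitor securin, was at 25.8, 30.2 and 36.8 CPM and at 21.2, 27.1 and 36.2 CPM (0.16, SE 0.11). None of these genes passed the test, and all of their ranges overlapped. Cenpj, a centriole growth factor that shares the Cenp name, was at −0.10.

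Levels between genes were compared in the authors' FPKM, which divides by gene length. Cdc20 had the highest median level over the 16 libraries, 57.1 FPKM (38.3 to 76.8), followed by Cenpb at 54.3 (40.5 to 61.1) and Plk1 at 37.8 (30.3 to 48.0). The lowest were Cenpp at 1.56 FPKM (0.506 to 2.43), Cenpo at 1.83 and Cenpu at 1.93, all of the inner kinetochore. Cenpp had as few as 16 counts in a library, and 6 genes lie inside or across it on the opposite strand, so its level is uncertain. Protein-coding genes on the opposite strand also overlap Bub3, Cdc20, Cenpk, Cenpo, Cenpq, Cenpu and Kif18a, and a gene that is not protein-coding overlaps Cenpf there. The highest library had a median of 2.18 times the CPM of the lowest over the 42 genes. The ratio was smallest for Cenpb and Plk1, at 1.43 each, and largest for Cenpp, at 4.41, Cenpf, at 3.52, and Cenpe, at 3.01.

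The libraries in which these genes were high or low cut across the tumour types. One of 3 libraries was the highest for 36 of the 42 genes: MSI tumour CIN micronuclei 1 for 14, MSI tumour CIN free DNA 1 for 11 and CIN tumour MSI micronuclei 1 for 11. Their median deviations from each gene's own mean were 0.38, 0.37 and 0.40 on the log2 scale. An MSI tumour library numbered 2 was the lowest for 25 of the 42, and CIN tumour CIN micronuclei 2 was the lowest for 9.

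**Figure D3:**
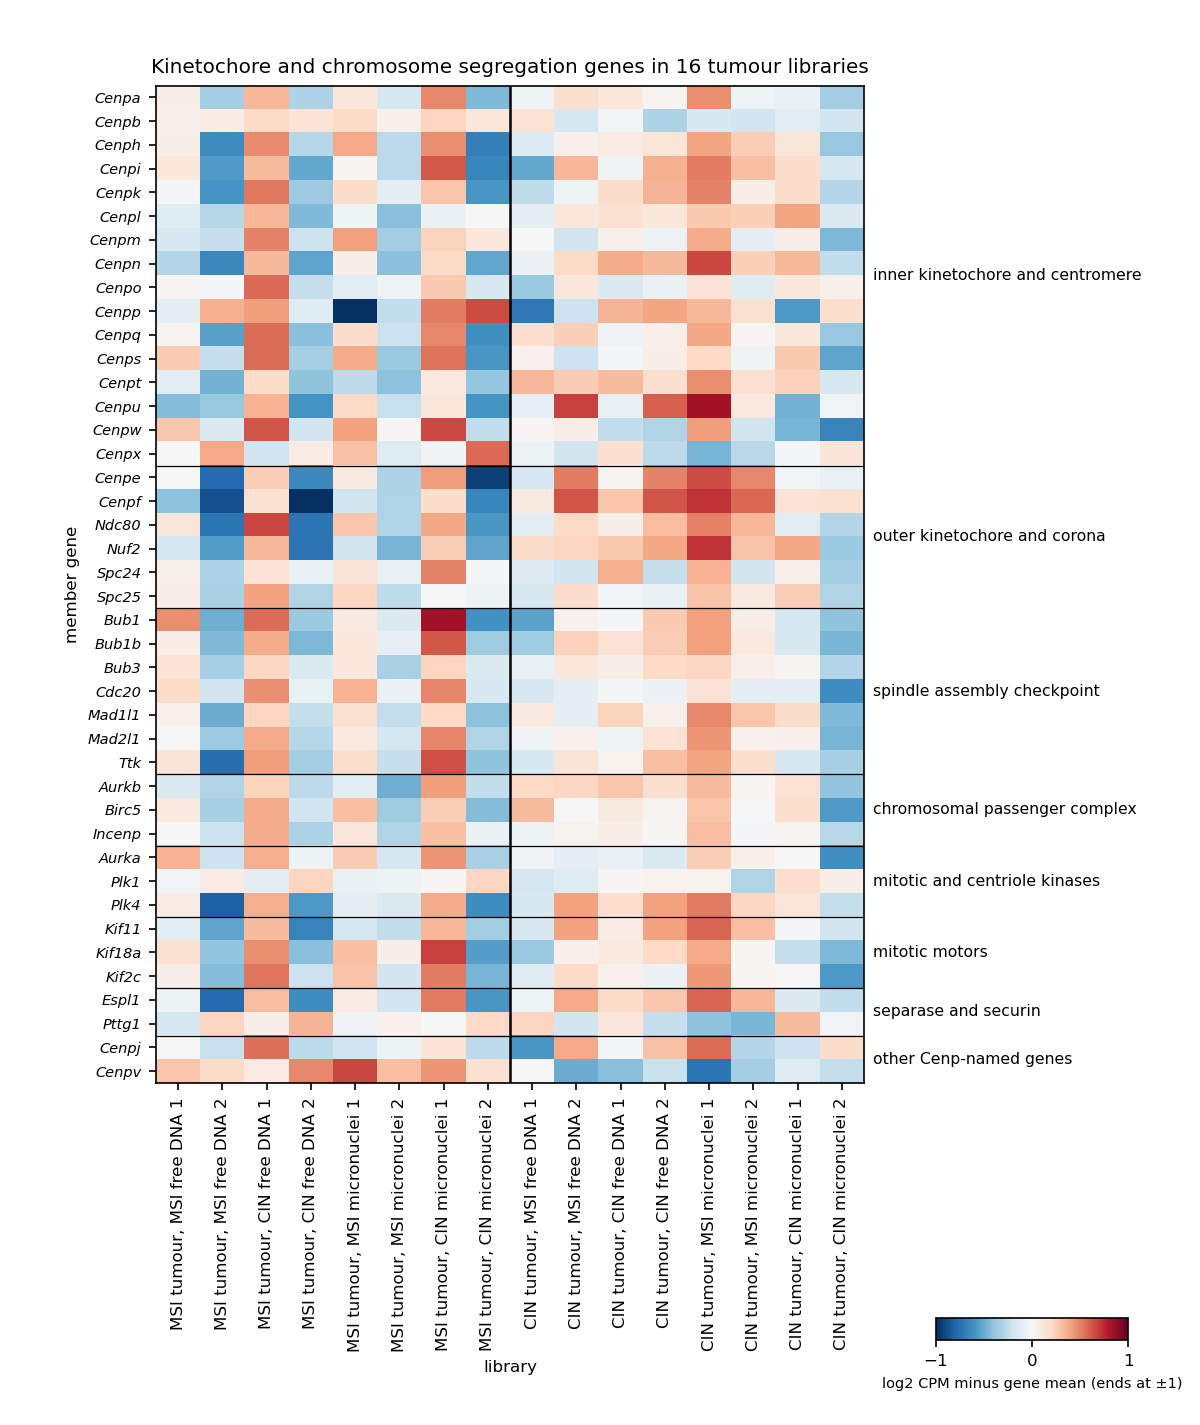
Rows are the 42 genes grouped by role, columns are the 16 libraries, and colour gives log2 CPM minus the gene's mean over the libraries, with the scale ending at −1 and 1. The MSI tumour libraries numbered 2 and CIN tumour CIN micronuclei 2 are low over most rows, and the 3 libraries that were most often highest, with median deviations of 0.37 to 0.40, are high over most rows.

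Within MSI tumours the library numbered 1 was above the library numbered 2 of its group on average for 38 of the 42 genes, and in 4 of 4 groups for 32. The numbers come from the titles, and nothing states that they mark a batch or a day. For 30 of the 42 genes all 4 libraries numbered 1 were above all 4 numbered 2, beside 19.5% of all genes tested. The median difference in log2 CPM was 0.54 over the 42 genes and 0.08 over all genes. Bub1 was at 72.2 to 121 CPM in the MSI libraries numbered 1 and at 44.5 to 61.2 CPM in those numbered 2. Ndc80 was at 50.9 to 74.3 CPM and 28.1 to 37.9 CPM, with a difference of 0.95 in log2 CPM, the largest of the 42. Cenpe was at 112 to 151 CPM and 58.9 to 90.9 CPM. The groups of 4 did not overlap for any of these 3 genes.

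Exceptions were 4 genes with a mean difference in the other direction: Cenpp (−0.29), Pttg1 (−0.23), Cenpx (−0.21) and Plk1 (−0.16). Plk1 and Pttg1 were lower in the library numbered 1 in 4 of 4 groups. The 18 genes with CHR letters had a median difference of 0.58, with 17 positive, and the 21 without had 0.52, with 18 positive. In CIN tumours the library numbered 1 was above for 28 of the 42 genes, with a median difference of 0.11 against −0.04 over all genes. Only Birc5, Cenpb, Cenpm and Spc24, 4 of the 42, had all CIN libraries numbered 1 above all numbered 2, beside 3.59% of all genes tested.

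Tissue markers moved with these values. The 5 libraries with the lowest mean log2 CPM over the 42 genes, 4.97 to 5.13, were the 4 MSI tumour libraries numbered 2 and CIN tumour CIN micronuclei 2. They were also the 5 with the highest mean log2 CPM over the 18 colon epithelium markers, 8.04 to 8.70, while the other 11 libraries had at most 7.75. The same 5 were highest for smooth muscle markers, 6.93 to 8.28, and for colon crypt base markers, 3.72 to 4.17. Macrophage markers had means of 7.07 to 7.49 in the MSI libraries numbered 1 and 6.45 to 6.80 in those numbered 2. At the other end, CIN tumour MSI micronuclei 1 had a mean of 5.66 over the 42 genes and the lowest colon epithelium mean of the 16, 2.23. Beyond a fit of the tumour difference with tissue marker means as covariates, given below, the part of these tissues and cells in these levels was not tested. DNA replication genes, a list of 26, had mean log2 CPM of 5.97 to 6.36 in the MSI libraries numbered 1 and 5.37 to 5.71 in those numbered 2.

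**Figure D4:**
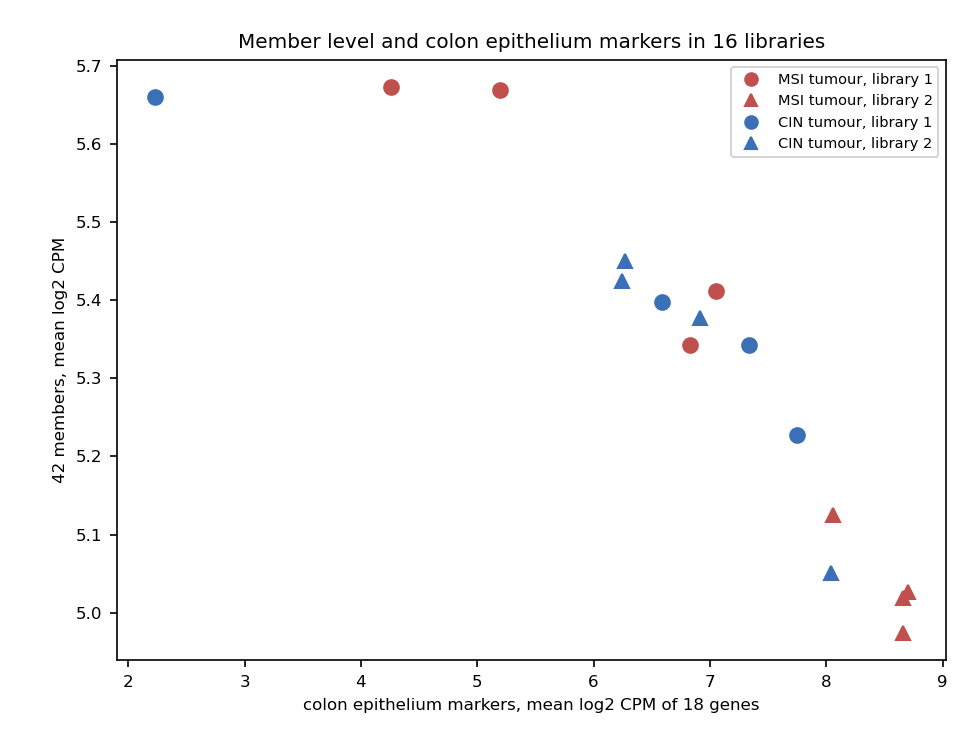
Each point is 1 of the 16 libraries, with the mean log2 CPM of the 18 colon epithelium markers on the horizontal axis and the mean log2 CPM of the 42 genes on the vertical axis. The 5 libraries above 8 on the horizontal axis lie at 4.97 to 5.13, below the other 11.

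The comparison of tumour types was therefore also made within each number, by a model of tumour, DNA source and DNA form, a choice made after the values were seen. In the libraries numbered 1, none of the 42 genes passed the test (edgeR, 4 against 4, beside 2.97% of all genes). There 31 were on the higher side in MSI tumours, with a median log2 fold change of 0.11, and the lowest adjusted p was 0.0586 for Cdc20 (0.39). In the libraries numbered 2, 14 of the 42 passed in edgeR, beside 31.4% of all genes, and the median was −0.30. The share of these genes called was thus near the share of all genes called. Shares of all genes by direction are not given for this fit. The 3 that were higher in MSI tumours were Cenpv (0.61), Pttg1 (0.41) and Cenpb (0.30). The 11 that were lower were Cenpf (−1.24), Cenpe (−1.02), Cenpu (−0.81), Ndc80 (−0.74), Plk4 (−0.73), Espl1 (−0.73), Nuf2 (−0.72), Cenpi (−0.71), Kif11 (−0.69), Cenpn (−0.67) and Cenpt (−0.53).

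The difference between those comparisons was tested as an interaction of tumour type with the number. None of the 42 genes and none of the 18777 genes passed in edgeR (background 0%). An unadjusted p under 0.05 was found for 16 of the 42. The share of all genes at that cut is not given, so this count is only a description. DESeq2 was not run for this interaction. The log2 fold change of MSI over CIN tumours was more positive in the libraries numbered 1 than in those numbered 2 for 37 of the 42 genes, by a median of 0.38. The lowest adjusted p was 0.0751, for a group of genes that included Cenpe (1.08), Ndc80 (1.00), Ttk (0.81), Espl1 (0.80), Cenph (0.71) and, with the other sign, Pttg1 (−0.52).

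**Figure D5:**
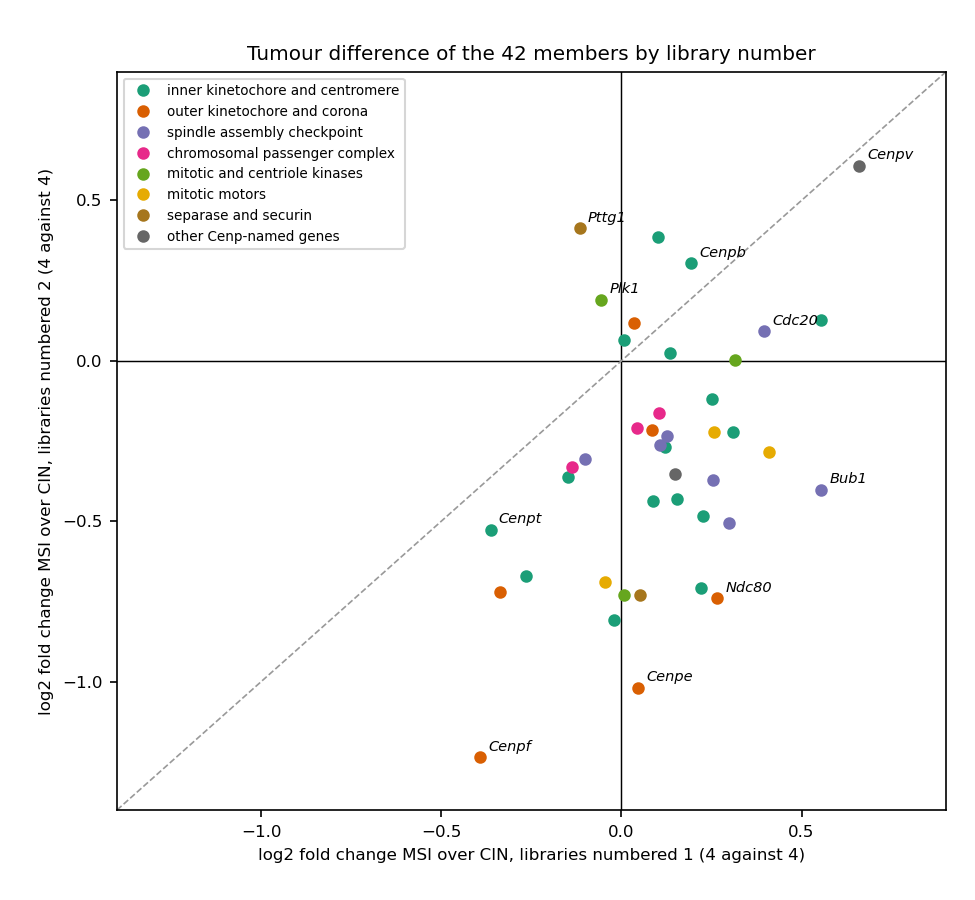
Each point is 1 of the 42 genes, coloured by role, with the log2 fold change of MSI over CIN tumours in the libraries numbered 1 on the horizontal axis and in those numbered 2 on the vertical axis (4 against 4 each), and a dashed line where they would be equal. Most points lie below the line, with medians of 0.11 and −0.30, while Cenpv is near it at 0.66 and 0.61.

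With the 3 tissue marker means as covariates, 3 of the 42 genes passed in edgeR, beside 6.10% of all genes: Cenpv (0.67), Cenpf (−0.56) and Cenpt (−0.42). There 26 of the 42 genes were on the higher side in MSI tumours, and the median log2 fold change was 0.03. Without the 4 MSI tumour libraries numbered 2, 3 passed, beside 5.78%: Cenpv (0.68), Cenpw (0.66) and Cdc20 (0.48). In that fit 30 of the 42 genes were on the higher side in MSI tumours. The median log2 fold change was 0.16, where it was −0.05 with all libraries and no covariate. With the mean of 21 mitotic entry genes as a covariate, 11 of the 42 passed in edgeR, beside 16.3% of all genes. Relative to that list, Cenpv (0.65), Cenpw (0.51), Cdc20 (0.38), Bub1 (0.33), Aurka (0.30), Kif18a (0.28), Cenpb (0.26) and Kif2c (0.21) were higher in MSI tumours, and Cenpf (−0.62), Cenpt (−0.34) and Nuf2 (−0.34) were lower. Both of the last settings were added after the values were seen. Cenpv was called in all 3 of these fits.

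The DNA given to the dendritic cells gave no call among these genes. For MSI against CIN DNA, 0 of the 42 passed in edgeR and 0% of all genes did; 0 of the 42 and 209 of all genes had an unadjusted p under 0.05, and DESeq2 called 0 of the 42. The median log2 fold change was −0.02, against −0.03 over all genes, and the value farthest from 0 was −0.45 for Cenpp (SE 0.22). For free DNA against micronuclei, 0 of the 42 passed in edgeR and 0% of all genes did; 0 of the 42 and 148 of all genes had an unadjusted p under 0.05, and DESeq2 again called 0. The 42 values of that comparison lay between −0.12, for Cenpi, and 0.10, for Pttg1. In both comparisons the share of all genes with an unadjusted p under 0.05 was itself below 0.05, fewer than expected with no effect. Over all genes tested, the spread between libraries was large (biological coefficient of variation 0.43 in common). That value is not for the 42 genes alone, whose standard errors between tumour types had a median of 0.17. The lack of calls, here and in the interactions below, therefore does not show that the DNA had no effect.

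Interactions were computed as differences of effects. The effect of MSI over CIN DNA in MSI tumours minus that in CIN tumours was negative for 38 of the 42 genes, with a median of −0.30 against −0.04 over all genes. None of the 42 passed in edgeR (0% of all genes; 0 of the 42 and 285 of all genes at an unadjusted p under 0.05; 0 by DESeq2). The value farthest from 0 was −0.64 for Cenpw (SE 0.36). The effect of MSI over CIN DNA given as free DNA minus that given as micronuclei was negative for 36 of the 42, with a median of −0.27 against 0.02, and again none passed in edgeR (0% of all genes; 0 of the 42 and 355 of all genes at an unadjusted p under 0.05; 0 by DESeq2). Cenpk (−0.66, SE 0.37) was farthest from 0. For tumour type by DNA form the median was −0.09 against −0.02, with 30 of the 42 negative and none passing in edgeR (0% of all genes; 0 of the 42 and 159 of all genes at an unadjusted p under 0.05; 0 by DESeq2).

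Other genes of division had the same sign as these genes in both interactions, and colon epithelium markers the opposite sign. Of 142 further cell division genes, 132 were negative in the interaction of tumour type with DNA source (median −0.29) and 132 in that of DNA source with form (median −0.30). All 18 colon epithelium markers were positive in both, with medians of 0.48 and 1.46, and none was called. Their part in the values of the 42 genes was not tested.

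By group mean, CIN tumours given MSI micronuclei were the highest of the 8 groups for 25 of the 42 genes, with a median deviation of 0.22 in log2 CPM from the gene's mean. Its library numbered 1 had a median deviation of 0.40 and its library numbered 2 one of 0.05. Each of these libraries was high in skeletal muscle transcripts, and the part of tissue in this order was not tested. MSI tumours given MSI free DNA were the lowest for 17, with a median deviation of −0.19, and CIN tumours given CIN micronuclei for 13, with −0.13. The test of any difference among the 8 groups called 0 of the 42 genes in edgeR, beside 0.208% of all genes. In it, 1 of the 42 genes, Cenpv, had an unadjusted p under 0.05, against 1007 of all genes. By edgeR its adjusted p was 0.534, and of the 42 genes DESeq2 called Cenpv alone. The share of all genes called by DESeq2 is not given for this test or for those within a DNA kind. Between all MSI and CIN tumours DESeq2 called 12.2% of all genes, against 5.80% by edgeR. Between tumour types given the same DNA, with 2 against 2 libraries, edgeR called 0 of the 42 genes with each of the 4 kinds. The background was 0.0320% of all genes with MSI free DNA, 0.0107% with CIN free DNA and 0.0213% with each kind of micronuclei. Unadjusted p-values under 0.05 were found for 2, 1, 4 and 1 of the 42 genes, with MSI free DNA, CIN free DNA, MSI micronuclei and CIN micronuclei in that order. The counts of all genes at that unadjusted cut are not given, so these counts are only a description. DESeq2 called 1 of the 42, Cenpv with MSI micronuclei.

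In the wider division machinery, 142 listed genes outside the 42 were tested between tumour types, and 1 passed as higher and 4 as lower in MSI tumours by edgeR. Over all genes tested, 2.32% passed as higher and 3.48% as lower. On the lower side were 102 of the 142, with a median log2 fold change of −0.16. Of 24 other kinetochore and centromere loading genes, 1 passed: Sgo2a, a shugoshin that shields centromeric cohesin, was at 16.4 ± 4.55 CPM in MSI tumours and 26.8 ± 4.81 CPM in CIN tumours (SD, n = 8; log2 fold change −0.70, SE 0.17, edgeR adjusted p = 0.0378). Of 18 anaphase-promoting complex genes, 1 passed: Anapc16, a small subunit of that complex, was at 59.0 ± 4.07 CPM and 44.6 ± 4.33 CPM (SD, n = 8; log2 fold change 0.41, edgeR adjusted p = 0.00889). Of 22 spindle and cytokinesis genes, Ckap2, a microtubule-stabilising protein, passed and was lower in MSI tumours (−0.55, edgeR adjusted p = 0.0285), and 20 of the 22 were on the lower side, with a median of −0.28. The other 2 calls were among the 26 DNA replication genes, both lower, Rrm2 (−0.62) and Mcm6 (−0.70). None of 21 cohesin and condensin genes, 10 centriole duplication genes or 21 mitotic entry genes passed, with medians of −0.21, −0.17 and −0.11.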

How the data were processed

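Poly-A RNA was sequenced in 16 libraries. The authors deposited counts per gene and FPKM; the submitters' processing notes name fastp, HISAT2 2.0.5, featureCounts 1.5.0-p3 and build GRCm39. The deposited coordinates are those of GRCm38, since 53585 of 54495 genes also in GENCODE M21 lie at the same place. How strand was treated is not given in these sources. The deposited FPKM values equalled the authors' counts divided by gene length and 1 total per library. Of the count columns, 4 matched no sample and were not used.

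From the counts, edgeR 4.0.16 (R 4.3.3) was run with TMM factors and a model of 8 group means on the 18777 genes that filterByExpr kept. Quasi-likelihood fits were robust, and p-values were adjusted by Benjamini-Hochberg over all genes, with a threshold of 0.05. Levels are CPM with TMM factors; log2 CPM has a prior count of 2. The biological coefficient of variation was 0.43 in common, so replicate spread limited precision more than counting did. The libraries of a group differed beyond sampling noise (chi-square per degree of freedom 21.4 to 238). Alternatives used DESeq2 1.42.0, other scaling and filtering, a replicate block, tissue covariates and left-out libraries. The fit was tested on simulated counts. In the text, values in every library are given for the called genes Cenpv and Cenpf. For 15 others, chosen by role, the lowest, median and highest value in each tumour type are given. They are Cenpa, Ndc80, Bub1, Bub1b, Mad2l1, Ttk, Cdc20, Aurkb, Birc5, Aurka, Plk1, Plk4, Kif18a, Espl1 and Pttg1. Cenpt, Cenpb and Nuf2 were added in the same form after their values were seen. Up to 3 called genes per list are named. The genes and lists were chosen with earlier results of these data known. Mouse Cenpc1 is counted among the other kinetochore genes, since its name ends in a digit.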

Additional observations from a re-analysis of the deposited data

Results flagged for a closer look

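In groups of 8 libraries, 5 of 84 tested had 1 library far from the rest, where chance alone gives about 1 in 20. CIN tumour CIN micronuclei 2 was the low library in 4 of them. Aurka was at 37.2 CPM there against 51.4 to 67.4 CPM in the other CIN tumours, with a gap of 0.543 of the whole range. Aurkb was at 48.1 against 64.0 to 78.8 CPM (gap 0.578), Birc5 at 48.0 against 71.3 to 88.3 CPM (gap 0.648) and Cdc20 at 71.9 against 99.2 to 122 CPM (gap 0.605). In MSI tumours, Cenpp was at 1.32 CPM in MSI tumour MSI micronuclei 1 against 3.04 to 5.81 CPM in the others (gap 0.556).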

How the results depend on the processing

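With DESeq2, 4 of the 42 genes were called between tumour types (Cenpb, Cenpf, Cenpt and Cenpv) against 2 by edgeR, and 2295 of all genes against 1089. DESeq2 also called 1, Cenpv, in the 8-group test and 1, Cenpv, with MSI micronuclei, where its share over all genes is not given. The main fit did not pair libraries by number, although same-numbered libraries shared part of their deviations. Of 28 pairs of same-numbered libraries, 16 had deviations correlated above 0.1 (−0.539 to 0.796, median 0.269). Within a tumour type it was 8 of 12 pairs, with a median of 0.388. With a replicate block 5 genes were called (1778 of all genes), and with a block set separately in MSI and CIN tumours 8 (3428). Leaving out the 5 libraries with high skeletal muscle transcripts, 0 were called (135 of all genes). That fit used an additive model of tumour, DNA source and DNA form. Leaving out 1 library gave 1 to 4 calls, 477 to 1758 over all genes, and medians from −0.15 to 0.05. The count was 3, against 2, with RLE scaling, no filter or tissue covariates.

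Chosen after the data were seen, the additive model on all libraries called 4 (1950 of all genes) and the mitotic entry covariate 11 (3057). The libraries numbered 1 alone, also chosen then, gave 0 (543) and those numbered 2 alone 14 (6071). The median log2 fold change, −0.05, became −0.30 in the libraries numbered 2 and 0.16 without the 4 MSI tumour libraries numbered 2. Additive fits give no interaction, 8-group test or comparison within a DNA kind.

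A change of sign in a single gene was counted where the gene was called or moved by more than its standard error. With tissue covariates these were Cenpi 0.090, Cenpj 0.14 and Pttg1 −0.0020; without the 5 libraries Cenpj 0.19 and Pttg1 −0.044. In the libraries numbered 2 they were Bub1 −0.40, Cenpo −0.12, Cenps −0.22, Kif18a −0.29 and Kif2c −0.22. In those numbered 1 they were Bub1b 0.25, Bub3 0.11, Cenpa 0.12, Cenpe 0.047, Cenph 0.23, Cenpi 0.22, Cenpj 0.15, Cenpk 0.087, Cenpq 0.15, Espl1 0.051, Mad2l1 0.13, Ndc80 0.27, Plk1 −0.056, Plk4 0.0078, Pttg1 −0.12, Spc25 0.084 and Ttk 0.30. Without the 4 MSI libraries they were Birc5 0.20, Bub1b 0.26, Bub3 0.12, Cenpa 0.21, Cenph 0.27, Cenpi 0.12, Cenpk 0.15, Cenpq 0.23, Espl1 0.044, Incenp 0.18, Mad1l1 0.043, Mad2l1 0.20, Ndc80 0.25, Plk1 −0.012, Spc25 0.12 and Ttk 0.29. The cause was not tested. Of the other values of single genes, 1072 kept their sign or stayed within their error and their side of the threshold, 42 newly passed it and 19 no longer did.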
